A study of Bos taurus with 63 samples.

Results

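In the blood leukocytes of German Holstein dams, 44 of the 11645 genes with enough reads were higher in dams with direct heat stress (HS) than in control dams in at least 0.85 of all pairs of an HS dam and a control dam. In each of them at least 10 of 12 HS dams were above the median of the control dams. They were chosen by 3 conditions. The mean count over 31 dams had to be at least 14, which 11645 of the 23010 genes in the table met. The area under the curve (AUC), which is the share of all pairs of an HS dam and a control dam in which the HS dam had the higher CPM (normalised read counts scaled to a common library size), had to be at least 0.85. The mean log2 CPM of 31 calves and of the 31 dams had to differ by less than 1. The last condition removed 0 genes. Since these dams were used to choose the genes, their differences between HS and control dams are a description, and nothing is read from the calls of a test on this contrast.

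The dams were 12 cows with direct HS, for which the study required a temperature-humidity index (THI) that averaged 60 or more over the day preceding blood collection, and 19 control dams below this limit. All of them were dry cows shortly before calving, kept together in a freestall barn, and they received no treatment other than the weather. The calves are daughters of dams of the study, though the labels do not link a calf to its dam. They were sampled in their first weeks of life, 30 of them as controls and 1 (calf HS-IU_2048) labelled heat stress. The study compared calves by the THI of the last weeks of gestation of their dams, and the labels do not say whether this label means that or the day before sampling. A further dam, HS-IU_1804, carries no HS status and entered no group. Each library comes from 1 animal, and animals are called here by the name in their label. The day of sampling, the season and the parity of the dams are not in the labels, and since HS follows the weather of a single day, HS and season cannot be told apart here. Reads on genes ranged from 4427037 to 10569898 per HS dam, from 4340680 to 14206517 per control dam and from 5417064 to 19584521 per control calf. The HS and control dams did not differ detectably in reads on genes, in the number of genes with reads or in the share of reads on the 100 highest genes (two-sided permutation tests with 100000 resamples, p from 0.420 to 0.725, adjusted p = 0.725 for each). The share on the 100 highest genes was 21.4% ± 0.700 (SD, n = 12) in HS dams and 21.1% ± 1.12 (SD, n = 19) in control dams.

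Heat load in cattle acts on blood leukocytes by several routes that are well described in general. Heat itself activates heat shock factor 1, which drives the chaperones that keep proteins folded. Cortisol, released through the hypothalamus and the adrenal gland, changes the transcription of leukocytes and moves neutrophils and lymphocytes between tissue and blood. RNA of blood leukocytes is therefore a mixture over cell types, and fewer cells of a type and less RNA per cell cannot be told apart in it. The annotation at hand gave an Ensembl identifier for 0 of its 37063 genes, so it named none of the 44 genes, and neither the markers of leukocyte types nor chaperone or cortisol target genes could be looked up. The labelled tissue was not checked against its markers for the same reason. The genes are therefore described by their rank in AUC, from 1 (the highest) to 44, and by identifier for the gene of rank 1 (ENSBTAG00000045980) and for the gene of rank 11 (ENSBTAG00000052980), which the study itself gives by identifier.

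The AUC of the 44 genes ranged from 0.851 to 0.952 with a median of 0.866, where the median over all genes tested was 0.5. Only 9 of them reached 0.90. Of all genes tested, 0.378% reached the limit of 0.85. The same rule turned around gave 170 genes that were lower in HS dams, so high genes made up 20.6% of the genes at both ends. With CPM scaled by library size alone, without normalization factors, 22 genes were higher and 206 lower, and the share of high genes was 9.65%. With 1 dam left out, the number of lower genes ranged from 127 to 261, and the share of high genes from 17% to 35.2%, the latter without dam HS-IU_1835 (88 higher and 162 lower), and it was 32.7% without dam HS-IU_1568. The size of the differences was modest. The mean log2 CPM of HS dams exceeded that of control dams by 0.14 to 0.68, with a median of 0.33 beside 0.0033 over all genes, and the ratio of the mean CPM ranged from 1.11 to 1.60. In edgeR's quasi-likelihood test on the same dams, 40 of the 44 genes were among those called higher at an adjusted p below 0.05 (0.764% of all genes), and 3 among those that also had a log2 fold change above 0.58 (0.12% of all genes). As the same contrast chose the genes, these counts only place them in the full test. They rest on single dams and on the filter, since without dam HS-IU_1516 the test called 37 genes higher, 23 of the 44 among them, without dam HS-IU_1568 it called 212 and 42, and with no filter on low counts 34 and 19. DESeq2 called 173 genes higher. The test called 89 genes higher in all, so that 49 called genes had an AUC below 0.85.

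**Figure D1:**
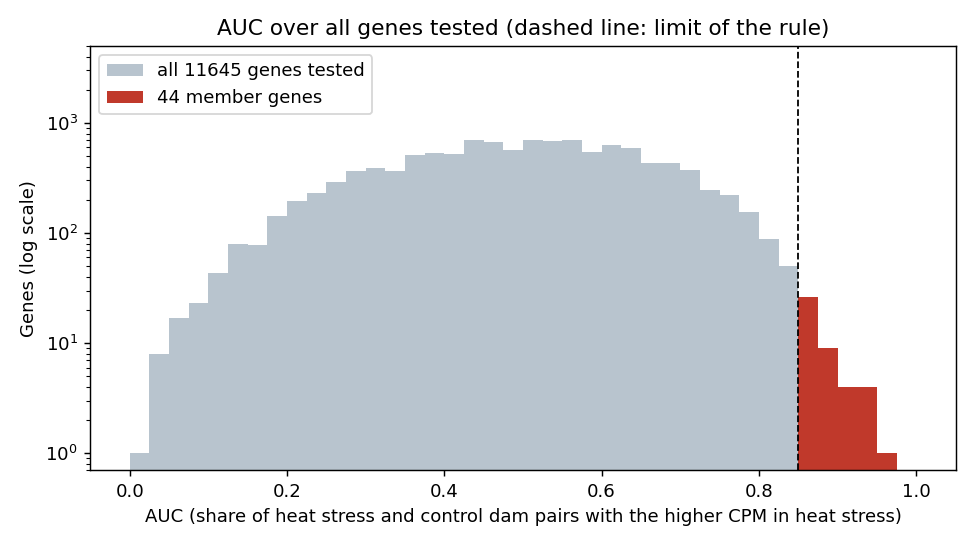
Number of genes (log scale) by AUC between 12 HS dams and 19 control dams, in bins of AUC, for all 11645 genes tested (grey) and the 44 genes described here (red). The dashed line marks the limit of 0.85, and the low end holds more genes than the high end.

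The 44 genes were mostly well expressed. Their mean CPM over the 31 dams ranged from 2.21 to 838 with a median of 81.9, against 27.3 over all genes and 27.2 over the 170 lower genes. In 33 of the 44 genes the mean was above the median of all genes, and 13 were among the 10% of genes with the highest means.

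ENSBTAG00000045980, the gene of rank 1 (AUC 0.952), had 164 CPM in the lowest, 176 in the median and 188 in the highest HS dam. In control dams it had 108, 139 and 179 CPM. All 12 HS dams thus lay above the control median, 4 of them above every control dam, and 17 of the 19 control dams lay below every HS dam. The means were 175 ± 8.58 CPM (SD, n = 12) and 141 ± 16.9 CPM (SD, n = 19), a ratio of 1.24. Its log2 difference of 0.32 was below the median of the 44 genes, and its SD was smaller in HS dams than in control dams.

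ENSBTAG00000052980, at rank 11 (AUC 0.895), had 58.7, 74.5 and 86.7 CPM in the lowest, median and highest HS dam. In control dams it had 38.2, 54.7 and 73.7 CPM. Here 8 HS dams exceeded every control dam and no control dam exceeded the HS median. The ratio of the means was 1.29 and the log2 difference was 0.38. The study reported this gene as higher in HS dams and as negatively correlated with several metabolites. The dams here belong to that study, so their values are not an independent result.

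The gene of rank 2 was less abundant, with 20.5 to 30.5 CPM (median 25.4) in HS dams and 14.6 to 25.5 CPM (median 17.6) in control dams. The gene of rank 5 was one of the most abundant, with 628 to 897 CPM (median 761) in HS dams and 472 to 720 CPM (median 615) in control dams. Rank 6 had the most HS dams beyond the controls. In it 10 of the 12 HS dams exceeded all control dams, with 113 to 175 CPM (median 144) against 97.6 to 136 CPM (median 121), and dam HS-IU_1568 was the lowest of the HS dams.

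The largest log2 difference belonged to the gene of rank 16. It had 27.3 to 63.5 CPM (median 46.8) in HS dams and 17.8 to 46.7 CPM (median 26.6) in control dams, a log2 difference of 0.68. Rank 17 followed with 6.37 to 14.9 CPM (median 10.4) against 3.66 to 10.4 CPM (median 6.22) and a log2 difference of 0.67. The least expressed of the 44 genes, at rank 23, had a mean of 2.87 ± 0.724 CPM (SD, n = 12) in HS dams and 1.79 ± 0.715 CPM (SD, n = 19) in control dams. These 3 genes were those past a log2 fold change of 0.58 in the test. The most expressed gene, at rank 34, had 943 ± 145 CPM (SD, n = 12) and 772 ± 116 CPM (SD, n = 19), a log2 difference of 0.29. The smallest log2 difference, 0.14, was found at rank 37, a gene with 311 to 419 CPM (median 355) in HS dams and 283 to 349 CPM (median 326) in control dams. The SD of this gene among the 19 control dams was 17.5 CPM.

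Not one of the 44 genes separated the groups fully. The number of HS dams above every control dam ranged from 0 to 10 with a median of 4. All 12 HS dams exceeded the control median in 26 genes, 11 did in 15 genes, and the fewest was 10. In 13 genes no control dam exceeded the HS median, and in the others at most 3 did. The gene of rank 33 was the one without any HS dam above all controls, because control dam HS-IU_1467 had 798 CPM and the highest HS dam had 724. The 7 genes just inside the limit shared an AUC of 0.851 and had log2 differences from 0.19 to 0.43. The 11 genes just outside shared an AUC of 0.846 and had log2 differences from 0.16 to 0.52, so the limit cut through a continuous range.

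The dams differed in how much they carried the pattern. For each dam, the deviation of log2 CPM from the mean of the control dams was taken as a median over the 44 genes. In HS dams this value ranged from 0.157 (dam HS-IU_1568) to 0.491 (dam HS-IU_1800) with a median of 0.318. In control dams it ranged from -0.181 (dam HS-IU_1727) to 0.174 (dam HS-IU_1821) with a median of -0.023. These values lie apart because the genes were chosen for it, and still they overlapped, since control dams HS-IU_1821 and HS-IU_1577 (0.158) exceeded HS dam HS-IU_1568. The other 11 HS dams exceeded all control dams. The number of genes above the control mean was between 40 and 44 in the 11 other HS dams and 30 in dam HS-IU_1568. In control dams it ranged from 7 in dam HS-IU_1727 to 36 in dam HS-IU_1577.

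Dam HS-IU_1568 was the lowest of the 12 HS dams in 19 of the 44 genes. The highest of the 31 dams was dam HS-IU_1516 in 10 genes, dam HS-IU_1837 in 7, dam HS-IU_1460 in 6, and dams HS-IU_1800 and HS-IU_1863 in 5 each. Among control dams, the highest was dam HS-IU_1577 in 10 genes, dam HS-IU_1467 in 8 and dam HS-IU_1622 in 6. So no single dam produced the high or the low end of all genes. Leaving out dam HS-IU_1568 raised the number of genes that met the rule from 44 to 127, and leaving out control dam HS-IU_1811 lowered it to 32. In the 31 rules with 1 dam left out each, 24 of the 44 genes were kept every time, and the gene kept least often met the rule in 10. The genes of rank 1 to 24 were those kept every time, ENSBTAG00000045980 (AUC from 0.940 to 0.986) and ENSBTAG00000052980 (AUC from 0.880 to 0.933) among them.

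**Figure D2:**
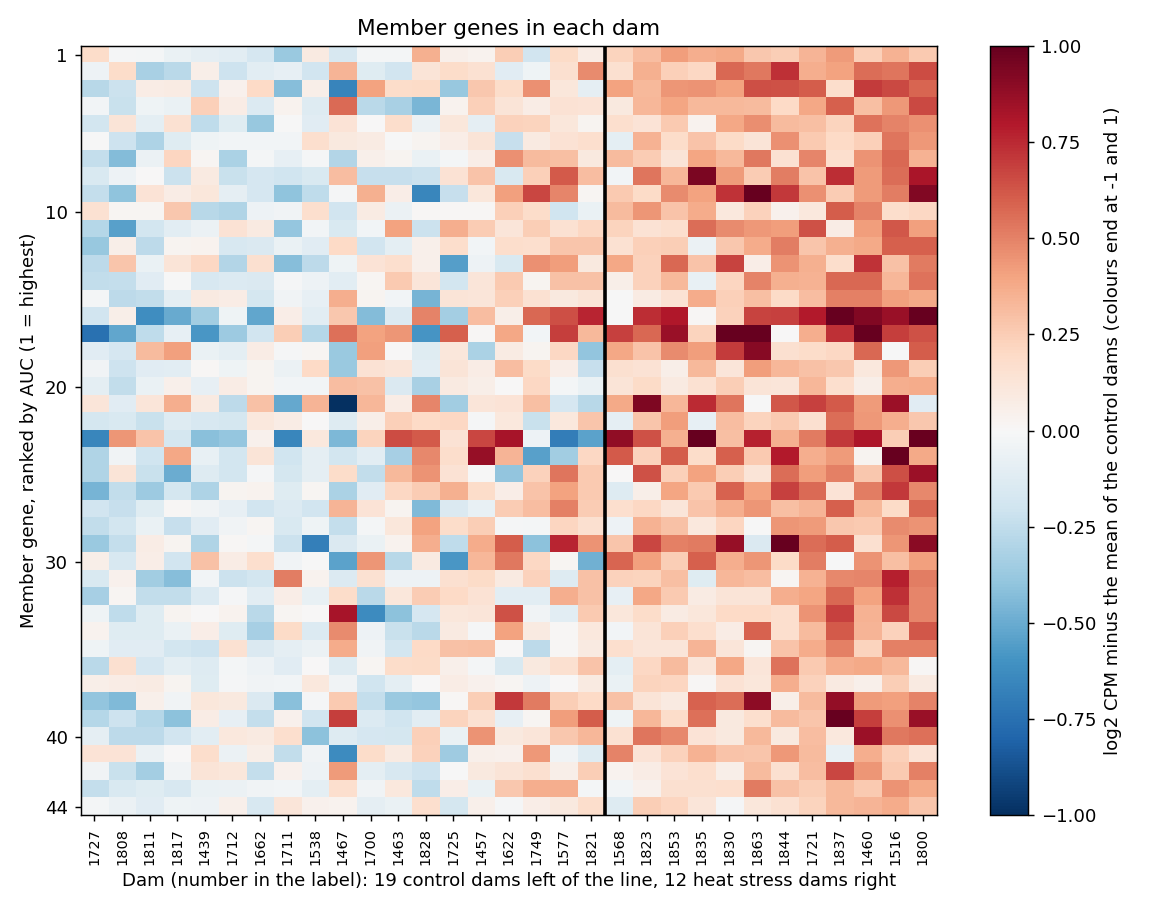
Heat map of the 44 genes (rows, by rank in AUC) in 19 control dams (left of the line) and 12 HS dams (right), each group sorted by its median deviation. Colours give log2 CPM minus the mean of the control dams and end at -1 and 1. Red prevails in the HS dams, where dam HS-IU_1568 is the palest, and the control dams on the right of their block (HS-IU_1749, HS-IU_1577 and HS-IU_1821) are mostly red as well.

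The median deviation of the 170 lower genes ranged from -0.556 in dam HS-IU_1800 to -0.113 in dam HS-IU_1568 among HS dams, and from -0.146 (dam HS-IU_1457) to 0.167 (dam HS-IU_1662) among control dams. HS dams HS-IU_1800 and HS-IU_1568 thus stood at the ends of both lists, while the control dams at the ends were not the same.

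Whether the 44 genes also rose and fell together among animals of 1 group was described by Spearman's rho over all 946 pairs of them. Over the 19 control dams, the median rho was 0.199, while over all 67797190 pairs of genes tested it was -0.0036. Of the pairs of the 44 genes, 71.5% were above 0 and 15.4% were above 0.5, where all gene pairs had 49.5% and 5.30%. In the 12 HS dams the median was 0.189 and 18.7% of pairs were above 0.5, beside 8.34% of all gene pairs. In the 30 control calves, which took no part in the AUC but are related to the dams of the study, the median was 0.349 and 29% of pairs were above 0.5, beside 5.36% of all gene pairs. All values within a group come from the same libraries and share their depth and normalization, and 33 of the 44 genes had a mean CPM above the median of all genes. Pairs within the 170 lower genes had medians of the same size, with 0.221 in control dams, 0.189 in HS dams and 0.366 in control calves. The first principal component of the 44 genes held 28.4% of their variance in control dams, 32.3% in HS dams and 38.5% in control calves.

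The coupling was uneven. A gene's median rho with the other 43 ranged from -0.142 to 0.395 in control dams and was above 0 in 39 genes. ENSBTAG00000045980 had a median of 0.142 and ENSBTAG00000052980 one of 0.267. In control calves the median was above 0 in all 44 genes, from 0.026 to 0.556. The tightest pair in control dams, ranks 26 and 28, had a rho of 0.877, with 0.552 in HS dams and 0.520 in control calves. Ranks 15 and 42 were tied closely in each group, with a rho of 0.872, 0.846 and 0.856. The most opposed pair in control dams, ranks 21 and 39, had a rho of -0.632 there, but of 0.189 in HS dams and 0.162 in control calves. Of the 146 pairs above 0.5 in control dams, 93 were above 0.5 in control calves too, which is 63.7% of these 146 and 33.9% of the 274 such pairs in calves. In all 3 groups, 54 pairs were above 0.5, and they involved 31 of the 44 genes. How often pairs of other genes recur between the groups was not counted, so this is not shown to be particular to the 44 genes. Towards the 170 lower genes the median rho was -0.195 in control dams, -0.182 in HS dams and -0.333 in control calves, where 88.8% of these pairs were below 0.

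**Figure D3:**
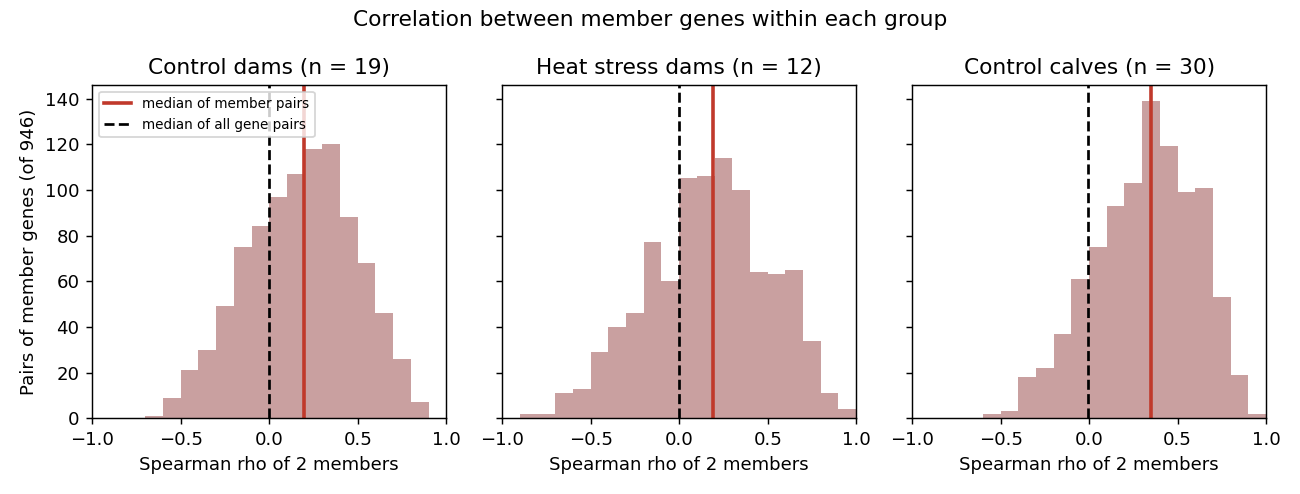
Histograms of Spearman's rho for the 946 pairs of the 44 genes, within control dams, HS dams and control calves. The red line is the median of these pairs (0.199, 0.189 and 0.349) and the dashed line the median of all gene pairs, which is near 0 in each panel.

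Calves expressed the 44 genes at about the level of dams. The mean log2 CPM of the 31 calves minus that of the 31 dams ranged from -0.73 to 0.41 with a median of -0.007. It was within 0.5 in 41 of the 44 genes, where 82.9% of all genes were. In 21 genes calves were higher. The mean of control calves lay between those of control and HS dams in 26 genes, below that of control dams in 15 and above that of HS dams in 3. On the scale of all 63 libraries, ENSBTAG00000045980 had 119, 144 and 191 CPM in the lowest, median and highest control calf, with a median of 133 in control dams and 170 in HS dams. ENSBTAG00000052980 had 28.6, 52.3 and 82.1 CPM in control calves, with a median of 52.6 in control dams and 71.5 in HS dams. In both genes the median of control calves was nearer to that of control dams, and 3 and 2 of the 30 calves exceeded the median of HS dams. The gene of rank 2 differed most between calves and dams, with a median of control calves of 11.5 CPM against 16.8 in control dams and 24.5 in HS dams.

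The control calves covered a wider range of the pattern than either group of dams, but the groups differ in size. The AUC also favours genes with little spread within the dams that chose them, and the calves took no part in it. The median deviation of control calves over the 44 genes, from the mean of the control dams on the scale of all libraries, ranged from -0.264 (calf HS-IU_2019) to 0.615 (calf HS-IU_2038) with a median of 0.066. On this scale control dams ranged from -0.186 to 0.165 and HS dams from 0.15 to 0.487. Of the 30 control calves, 9 were above the highest control dam and 5 above the median HS dam, while 3 were below the lowest control dam.

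**Figure D4:**
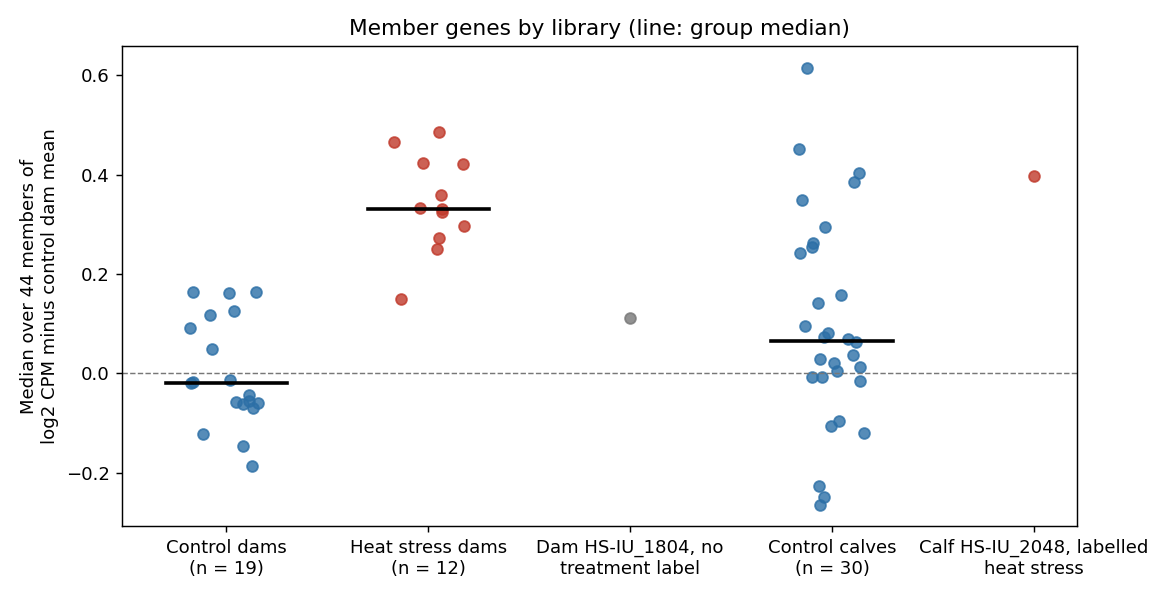
Median over the 44 genes of log2 CPM minus the mean of the control dams, for each library. Points are libraries and black lines are group medians. The dams of both groups nearly separate by the choice of genes, and the control calves reach from below the control dams to above the HS dams.

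In control calves the level of the 44 genes moved with the number in the calf's label. The labels do not say what this number stands for, and every library carries the same batch in them. Numbers of control calves ran from HS-IU_2006 to HS-IU_2052. The 15 calves with the lower numbers (HS-IU_2006 to HS-IU_2026) had median deviations from -0.264 to 0.141 with a median of -0.007, and the 15 with the higher numbers (HS-IU_2027 to HS-IU_2052) had -0.008 to 0.615 with a median of 0.254. The mean log2 CPM was higher in the calves with the higher numbers in 43 of the 44 genes, by a median of 0.28, beside 0.0044 over all genes. With the number as a linear term in edgeR's quasi-likelihood test over all 11645 genes, 11 of the 44 genes were called higher with the number and 0 lower at an adjusted p below 0.05, where 1.66% of all genes were called higher. Without an adjustment, 27 of the 44 genes had a p below 0.05 in this direction, beside 1054 of all genes. The slope had a median of 0.14 log2 units per SD of the number (12.9 units), against -0.0063 over all genes. Without calves HS-IU_2015, HS-IU_2008 and HS-IU_2010, which had the most genes far above the other calves, 17 of the 44 genes and 656 of all genes were called higher, and with 1 calf left out 8 to 13 of the 44 and 87 to 333 of all genes. This test was added after the values had been seen.

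By adjusted p, though not by slope, the strongest of the 11 calls was the gene of rank 5. It had 516 to 872 CPM (median 598) in the calves with lower numbers and 602 to 1301 CPM (median 801) in those with higher numbers, a slope of 0.24 (SE 0.04, edgeR adjusted p = 0.000914). For rank 16, the gene with the largest difference between dams, the slope was 0.29 (SE 0.06, edgeR adjusted p = 0.00927). ENSBTAG00000052980 had medians of 44.6 and 58.2 CPM in the same 2 sets of calves, but its slope of 0.15 (SE 0.06) was not past the threshold (edgeR adjusted p = 0.129). For ENSBTAG00000045980 the slope was 0.06 (SE 0.04, edgeR adjusted p = 0.401). The gene of rank 10 had the slope nearest to 0 and below it, -0.02 (SE 0.06). Of the 170 lower genes, 91 were called lower with the number and 0 higher, where 3.01% of all genes were called lower.

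No such relation was called in the control dams. These dams also served to choose the genes, so the lack of calls does not show that the relation is absent. In the 19 control dams edgeR's quasi-likelihood test called 0 of all genes with the number in either direction, and at an unadjusted p below 0.05 it had 463 genes higher, with 0 of the 44 among them. Whether the relation differs between calves and dams was not tested. The numbers of HS dams (HS-IU_1460 to HS-IU_1863) and control dams (HS-IU_1439 to HS-IU_1828) overlapped, but an HS dam had the higher number in 73.7% of pairs. With the number as a covariate, the test of HS against control dams called 89 genes higher and 222 lower, in place of 89 and 221. The 44 genes had 38 calls in this fit, but as they were chosen on these dams nothing is read from that count. In control calves, rho between a gene and the share of reads on the 100 highest genes ranged from -0.342 to 0.713 over the 44 genes, with a median of 0.362 beside -0.006 over all genes. It was above 0 in 35 of the 44 genes and above 0.5 in 8, where 9.14% of all genes were above 0.5. With depth and this share as covariates, 12 of the 44 genes were called higher with the number, beside 226 of all genes.

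**Figure D5:**
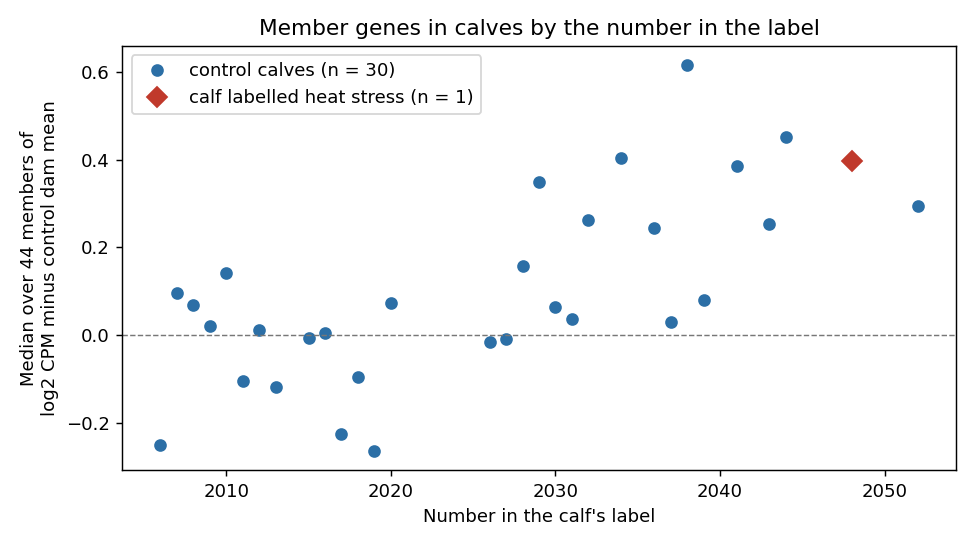
Median over the 44 genes of log2 CPM minus the mean of the control dams (vertical axis) by the number in the calf's label (horizontal axis), for 30 control calves and calf HS-IU_2048. Calves numbered up to HS-IU_2027 stay below 0.15, and most of the later ones lie above, calf HS-IU_2048 (0.397) included.

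Calf HS-IU_2048, the one labelled heat stress, had a median deviation of 0.397. It exceeded the mean of control dams in 40 of the 44 genes and the median of control calves in 39, where it exceeded that median in 49.7% of all genes. In 8 of the 44 genes it was the highest of the 31 calves, beside 5.35% of all genes, among them rank 2 (23.1 CPM, with 6.84 to 18.9 CPM in control calves) and rank 16 (66.8 CPM, with 15.5 to 52.1 CPM). It had 174 CPM of ENSBTAG00000045980 and 74.1 CPM of ENSBTAG00000052980, the fourth and the third highest value of the 31 calves. However, 3 control calves had a higher median deviation (HS-IU_2038, HS-IU_2044 and HS-IU_2034). The 5 control calves with the highest numbers, from HS-IU_2039 on, ranged from 0.080 to 0.452, and calf HS-IU_2048 was within the range of these 5 calves in 32 of the 44 genes. Shares over all genes were counted neither for these 32 nor for the 40 genes above the mean of control dams, so nothing is read from either count. With 1 calf there is no replicate and no test, and its label cannot be told apart from its late number.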

How the data were processed

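RNA of blood leukocytes was sequenced in 75-nt single-end reads after capture on oligo-dT beads. The authors deposited raw counts of reads per gene, made with cutadapt 4.2, FastQC 0.12.1 and STAR 2.7.11a on ARS-UCD1.2. The strand column is not given in the sources used here, so genes that overlap on opposite strands may share reads. The table holds 63 libraries, grouped by the labels (12, 19, 30, 1 and 1), and the 0 columns without a sample needed no exclusion. The members and lists were chosen with earlier results of these data known.

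Genes averaging 14 or more reads over 31 dams were kept, then normalized by TMM. CPM and log2 CPM (prior count 2) came from the dams alone, and from all 63 libraries where calves or dam HS-IU_1804 are shown. Tests used edgeR 4.0.16 (quasi-likelihood test, Benjamini-Hochberg over all 11645 genes, no covariates) in R 4.3.3, with limma 3.58.1 and DESeq2 1.42.0 as alternatives. A standard error is the size of the log2 fold change over the square root of F. Counts of these dams were simulated with 200 of 11645 genes changed 2-fold up or down. In them the test of HS against control dams called 192 of the 200 and 12 others. The genes described here had ratios of the mean CPM from 1.11 to 1.60, and changes below 2-fold were not simulated. The simulation therefore does not show how many changes of the observed size the test would find. The labels hold none of the covariates that the study fitted (season of calving, parity, time to calving and genomic components). The genes to be named were the 25 of highest AUC and those that the study names, but as the files pair no identifier with a name, only ranks 1 and 11 are given by identifier. For the same reason the lists of pathways and cell markers, and promoter motifs, were not analysed. Plots used Python 3.11.15 and matplotlib 3.10.9.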

Additional observations from a re-analysis of the deposited data

Results flagged for a closer look

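Dam HS-IU_1804, which has no HS status in its labels and entered no comparison, stood outside the control dams in 24 of the 44 genes, beside 43.7% of all genes tested. The study also set this dam aside, because its expression grouped it with the calves. It was above all 19 control dams in 15 of the 44 genes, where it was so in 20.9% of all genes tested, and below all of them in 9, beside 22.8% of all genes. In 12 genes it exceeded all 12 HS dams, beside 23.2% of all genes. Rank 33 had 992 CPM in this dam on the scale of all 63 libraries, and rank 2 had 7.17 CPM, where no other dam was below 13.9 CPM and the median control calf had 11.5 CPM. Its median deviation over the 44 genes, 0.112, was within the range of the control dams, because the high and the low genes offset each other. Its 100 highest genes held 26.1% of its reads, and their share in the 31 other dams was between 19.2% and 23.8%. The part of this share in the values was not tested.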

How the results depend on the processing

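The number of genes that met the rule was 44. It became 22 with library size only, 182 at an AUC of at least 0.80 and 9 at 0.90, and it was between 44 and 59 in the 7 other alternatives. With TMM over all genes before the filter and with TMM over dams and calves together, both added after the data had been seen, it was 46 and 55, of which 38 and 43 were among the 44. Leaving out 1 dam each gave 32 (without HS-IU_1811) to 127 (without HS-IU_1568). Of the 44 genes, 20 met the rule in all 4 other normalizations (DESeq2 size factors, library size only and both TMM variants), and 1 met it in none. Genes called higher in HS dams (89) became 173 with DESeq2 and 34 with no filter on low counts, those called lower (221) became 333 and 102, and of the 44 genes 19 in place of 40 were called with no filter. With 1 dam left out, each of these counts was lowest without HS-IU_1516 and highest without HS-IU_1568, with 37 and 212 higher calls, 93 and 387 lower calls, and 23 and 42 calls among the 44 genes. The median log2 difference of 0.33 stayed between 0.318 and 0.371 with 1 dam left out. The 44 genes were held fixed for this and not chosen anew, so the range does not show how stable the choice is. The median rho in control dams of 0.199 stayed between 0.179 and 0.218, and in control calves it was 0.349. The 11 genes called with the number in calves (193 of all genes) became 8 to 13 with 1 calf left out (87 to 333 of all genes) and 17 (656 of all genes) without calves HS-IU_2015, HS-IU_2008 and HS-IU_2010, in which 151, 25 and 15 genes were at least 8-fold above the calf median (median of the calves 4), and in control dams 0 were called. The cause of these changes was not tested. Not run were the alternatives with scores of neutrophil and T cell markers and those on marker levels, for want of gene names. No paired analysis was made, since HS and control dams are different animals and the labels do not link a calf to its dam. Low counts limit the least expressed of the 44 genes, and the covariates of the study were not at hand.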

Other observations

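The correlations are also given for the genes in which dam HS-IU_1804 was above all control dams and for those in which it was below them. This split was made after the values had been seen, and no difference between the sets was tested. In the 30 control calves, the median rho was 0.646 over the 105 pairs within the 15 high genes, 0.422 over the 36 pairs within the 9 low genes, and 0.0945 over the 135 pairs between the sets. In the 19 control dams these medians were 0.358, 0.289 and 0.195, and in the 12 HS dams 0.350, 0.322 and 0.231. Calf HS-IU_2048 was the highest of the 31 calves in 6 of the 9 low genes and in 0 of the 15 high genes. The share of reads on the 100 highest genes had a median rho in control calves of 0.469 with the 15 genes and of -0.135 with the 9 genes.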
